A study of Mus musculus with 13 samples.

Results

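Mouse blastocysts cultured in a KSOM medium with less arginine, leucine, isoleucine, lysine, glucose and lactate were compared across all genes with blastocysts taken at embryonic day (E) 4.5. The comparison rests on 3 reduced-nutrient KSOM libraries and 2 E4.5 libraries, 5 of the 13 libraries of the series, chosen by their labels. Of 31528 genes in the count table, 21808 had enough counts to be tested. Transcripts of skeletal muscle and neutrophils, which the reduced KSOM libraries carried, were set apart and are described before the other genes.

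The reduced KSOM embryos were wild type (WT), of the B6D2F1 background (mixed C57BL/6 and DBA2J), and at E5.5. The labels do not state how far each of the 6 nutrients was lowered, nor the day on which culture began. The depleted KSOM embryos, 2 libraries used as the most similar group, had the same genotype, background and day and were cultured in KSOM lacking its protein and carbohydrate components. The E4.5 embryos, also WT B6D2F1, came from mothers on a normal diet. No group was cultured in complete KSOM, so 1 day of age, culture itself and the lowered nutrients cannot be told apart in the comparison with E4.5. The labels do not say whether replicates came from separate litters or cultures or how many embryos a library holds, and p-values here measure only the spread between these libraries.

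A blastocyst is a fluid-filled embryo of 3 lineages, in which an outer trophectoderm surrounds the pluripotent epiblast and the primitive endoderm. KSOM is a simple salt medium that supports mouse embryos before implantation, with pyruvate, lactate and glucose as carbon sources. In diapause, a reversible arrest that mice enter when the uterus is not receptive, blastocysts slow growth and division while staying viable. Growth at this stage is set in part by mTORC1, a kinase complex that reads amino acids such as leucine and arginine and restrains autophagy, the delivery of cell contents to lysosomes.

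Library totals were 57240940, 44027959 and 56820116 counts in reduced KSOM and 56038082 and 48834738 counts in E4.5, within the 40678386 to 72125687 of all 13 libraries. Amplification was without molecular identifiers, so these totals bound counting error only. The 10 most abundant genes took 17.9% to 20.1% of counts in reduced KSOM and 7.29% to 9.65% in E4.5. The share of mitochondrial counts was 4.12% to 6.26% in reduced KSOM, 12.2% to 13.2% in depleted KSOM and 5.06% to 6.69% in E4.5. Of the blastocyst lineage markers, Pou5f1, Nanog and Sox2 of the epiblast, Gata4, Gata6 and Sox17 of the primitive endoderm, and Cdx2, Gata3, Eomes, Krt8 and Krt18 of the trophectoderm were counted in every reduced KSOM and every E4.5 library.

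Skeletal muscle and neutrophil transcripts stood well above the E4.5 level in all 3 reduced KSOM libraries. The 38 of 60 muscle markers that were under 1 CPM (counts scaled to a common library total) in both E4.5 libraries reached sums of 850, 1169 and 754 CPM in reduced KSOM. The same sum was 0.971 and 6.85 CPM in depleted KSOM and 3.30 and 3.22 CPM in E4.5. The reduced KSOM libraries and the first library of ovariectomised mothers (OVX), at 1039 CPM, were high, and all other libraries were at 9.39 CPM or below.

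The neutrophil markers were also highest in reduced KSOM but were less confined to a few libraries. The 34 of 42 markers that met the same limit summed to 1547, 2114 and 1526 CPM in reduced KSOM, 9.91 and 6.47 CPM in depleted KSOM, and 4.16 and 2.36 CPM in E4.5. OVX replicate 1 held 759 CPM and OVX replicate 2 held 141 CPM. The sums were 45.5 and 70.3 CPM in OVX with sgNprl2 and sgTsc2 and 5.17 and 15.2 CPM in starvation. Restricting both sums to markers near absent in E4.5 was decided after seeing the data, since the full lists also hold genes that blastocysts express: all 60 muscle genes summed to 1770, 2194 and 1554 CPM in reduced KSOM and 724 and 329 CPM in E4.5.

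Single markers had the same pattern. Myh4, a fast-muscle myosin heavy chain, had 338, 426 and 304 CPM in reduced KSOM and 0 and 0.478 CPM in E4.5 on the TMM scale (trimmed mean of M values, used for single genes from here on). S100a8, a calcium-binding protein of neutrophils, had 480, 593 and 478 CPM in reduced KSOM and 0.159 and 0.058 CPM in E4.5. For both genes the groups were far apart without overlap, and Myh4 nonetheless did not pass the test (edgeR adjusted p = 0.10). OVX replicates 1 and 2 had 347 and 0.226 CPM of Myh4 on library totals, a gap that enters the spread shared by the fit.

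**Figure D1:**
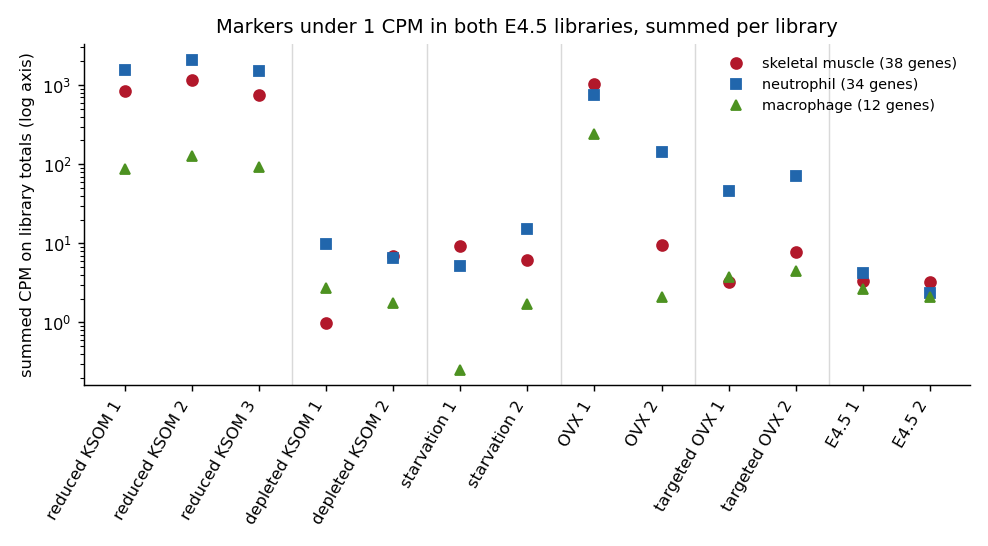
Summed CPM on library totals (log axis) of muscle and neutrophil markers that were under 1 CPM in both E4.5 libraries, for each of the 13 libraries. The 3 reduced KSOM libraries stand at 754 to 1169 CPM for muscle and 1526 to 2114 CPM for neutrophil markers, with OVX replicate 1 beside them at 1039 and 759 CPM, and the E4.5 libraries are at or below 4.16 CPM.

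Ratios between 3 muscle genes varied little. Acta1 and Myh4 were under 1 CPM in both E4.5 libraries, while Ckm had 12.6 and 4.59 CPM there on library totals. The ratio of Acta1 (skeletal actin) to Myh4 was 0.382, 0.374 and 0.379 in the reduced KSOM libraries and 0.375 in OVX replicate 1, and that of Ckm (muscle creatine kinase) to Myh4 was 0.3, 0.301 and 0.312 and then 0.301. Not all muscle markers kept such a ratio: Tpm2, a tropomyosin, had 19.0, 65.3 and 17.1 CPM on library totals in reduced KSOM and 9.40 and 6.76 CPM in E4.5. The neutrophil pair S100a9 to S100a8 stood at 0.611, 0.604 and 0.635 in reduced KSOM and 0.589 in OVX replicate 1. The ratio of Ngp, a neutrophil granule protein, to S100a8 was 0.947, 0.938 and 0.948 in reduced KSOM but 0.514 in OVX replicate 1. Muscle to neutrophil RNA also differed, with Myh4 to S100a8 at 0.703, 0.719 and 0.635 in reduced KSOM and 1.46 in OVX replicate 1. Macrophage markers near absent in E4.5 summed to 86.6, 129 and 92.3 CPM in reduced KSOM and 2.62 and 2.07 CPM in E4.5.

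Markers of liver and skin that were near absent in E4.5 were high in 2 of the 3 reduced KSOM libraries. Liver markers near absent in E4.5 summed to 48.7, 1.20 and 53.5 CPM in reduced KSOM replicates 1, 2 and 3, 22.3 and 19.3 CPM in depleted KSOM, and 0.874 and 1.0 CPM in E4.5. Skin markers summed to 44.8, 0.363 and 43.8 CPM in reduced KSOM and 1.02 and 0.143 CPM in E4.5, while the full skin list, at 60.7, 20.1 and 65.1 CPM in reduced KSOM and 72.8 and 32.3 CPM in E4.5, overlapped. Scgb1a1, an airway and uterine secretoglobin named after its values were seen, had 46.4, 0.765 and 49.1 CPM in reduced KSOM and no count in E4.5. Replicates 1 and 3 were high and replicate 2 was near the E4.5 level for liver markers, skin markers near absent in E4.5 and Scgb1a1. Other tissues differed from this: near-absent markers of fibroblasts and adipocytes summed to 17.6, 19.5 and 17.3 CPM in reduced KSOM and 0.410 and 0.860 CPM in E4.5, and those of bone and cartilage to 9.12, 11 and 8.73 CPM in reduced KSOM and 1.86 and 2.23 CPM in E4.5. Those of the uterus and oviduct summed to 51.9, 70.6 and 58.0 CPM in reduced KSOM and 0.375 and 0.492 CPM in E4.5, with Ltf, also a neutrophil gene, at 50.6, 69.7 and 56.9 CPM of the reduced KSOM sums. Erythroid markers stood at 13.3, 17.3 and 103 CPM in reduced KSOM, 77.1 and 2.28 CPM in depleted KSOM, and 1.66 and 1.8 CPM in E4.5.

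Set apart were 373 tested genes, 99 from the muscle and neutrophil lists and 274 that shared their pattern over the libraries. The mean of each of these 274 was under 5% of its reduced KSOM mean over the 8 libraries of E4.5, starvation, depleted KSOM and OVX with sgNprl2 and sgTsc2, where single libraries could exceed that share, and each was above all of those 8 in OVX replicate 1. The genes of that pattern, 335 with listed genes included, summed to 3343, 4523 and 3244 CPM in reduced KSOM and 45.3 and 33.9 CPM in E4.5. A wide gap between these sums was fixed by the rule that chose the genes, so the sums describe only how much RNA they hold. Only 8 of the 373 passed the test against E4.5, all higher: Tnnt3 of fast muscle, S100a8, S100a9, Camp, Ngp, Ltf and Lcn2 of neutrophils, and the unlisted Gngt2. Tnnt3 (fast skeletal troponin T) had 75.1, 89.6 and 63.6 CPM in reduced KSOM and no count in E4.5, at least 1827-fold higher against a floor of 3 counts per library (edgeR adjusted p = 0.045). Leaving out either E4.5 library ended the calls of Tnnt3, S100a8, S100a9, Camp and Ngp, with adjusted p from 0.12 to 0.29. In bulk RNA, fewer cells of a type and less RNA per cell cannot be told apart, here and for every marker below.

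Reduced KSOM and E4.5 differed in 247 of the 21808 tested genes (1.13%) at an adjusted p under 0.05, called genes from here on (edgeR quasi-likelihood test, Benjamini-Hochberg adjustment). Of these, 168 (0.77% of genes tested) were higher and 79 (0.362%) lower in reduced KSOM. Without the set-apart genes, 160 were higher (0.746%) and 79 lower (0.369%). The 3 reduced KSOM libraries did not overlap the 2 E4.5 libraries in any of the 247. Over all tested genes, 24% were higher and 20.4% lower without overlap. A lack of overlap in a called gene below thus adds nothing to its call. The median log2 fold change of the called genes with a fitted value was 2.15 among the higher genes and -1.84 among the lower ones.

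The split by direction depended on scaling. Called genes were 68.0% higher with TMM scaling, 15.1% higher on library totals and 20.1% higher in limma on log2 FPKM. The median log2 fold change of all tested genes was 0.15 with TMM scaling and -0.50 on library totals. List medians over E4.5 below are to be read against 0.15, and those on library totals against -0.50. Calls in a list are to be read against the 1.13% of all tested genes. The calls also rested on each library. Leaving out E4.5 replicate 1 or replicate 2 left 2 called genes, Gchfr and the predicted gene Gm47299, and leaving out reduced KSOM replicate 1, 2 or 3 kept 9, 48 or 39 of the 247. Of 78 called genes followed singly through the alternatives, Gchfr, Glipr1, Gstk1 and Lgals3 stayed called without reduced KSOM replicate 1, and 1, Gchfr, with E4.5 replicate 1 or replicate 2 left out. Of the same 78, 21 stayed called without reduced KSOM replicate 2, 16 without replicate 3, and 63 with scaling on library totals. A term added for the 4 libraries with muscle RNA, which is estimated from OVX replicate 1 against OVX replicate 2, left Gchfr and Glipr1. Leaving out OVX replicate 1, chosen after seeing the data, gave 557 calls that included all 247.

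The rise that held with each library left out was that of Gchfr, whose protein inhibits GTP cyclohydrolase 1 in the making of tetrahydrobiopterin. Gchfr (ENSMUSG00000046814, chr2:119167773-119172390 on GRCm38) had 414, 396 and 401 CPM in reduced KSOM, 366 and 487 CPM in depleted KSOM, and 3.75 and 5.36 CPM in E4.5. Its log2 fold change over E4.5 was 6.47 ± 0.43 (SE; edgeR adjusted p = 2.0e-05). Both KSOM groups were high, overlapped each other and stood apart from E4.5.

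Malat1, S100a1 and Adh1 were among the called genes with the largest rises at a mean log2 CPM of 4 or more. Malat1, a nuclear long noncoding RNA (chr19, 6983 nt), had 60720, 48720 and 57240 CPM in reduced KSOM, 5370 and 4273 CPM in depleted KSOM, and 1736 and 2853 CPM in E4.5, a log2 fold change over E4.5 of 4.60 ± 0.72 (SE; edgeR adjusted p = 0.016). Reduced KSOM was high here beside depleted KSOM and E4.5, but other groups of E5.5 were high as well. As a share of library counts, Malat1 took 4.49% to 5.06% in reduced KSOM and 7.23% and 2.63% in OVX. The share was 1.99% and 2.37% in OVX with sgNprl2 and sgTsc2, 2.14% and 0.933% in starvation, and 0.233% and 0.403% in E4.5. S100a1, a calcium-binding protein, had 503, 438 and 661 CPM in reduced KSOM, 963 and 1117 CPM in depleted KSOM, and 14.0 and 6.03 CPM in E4.5. Adh1, an alcohol dehydrogenase that also oxidises retinol, had 15630, 6072 and 14580 CPM in reduced KSOM, 25650 and 22770 CPM in depleted KSOM, and 533 and 851 CPM in E4.5. For S100a1 and Adh1 the order was depleted KSOM, reduced KSOM, then E4.5, with no overlap.

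Ltc4s, the leukotriene C4 synthase, followed Malat1 rather than Adh1, with 115, 63.5 and 138 CPM in reduced KSOM, 5.67 and 9.96 CPM in depleted KSOM, and 6.6 and 8.45 CPM in E4.5. Stmn1, which destabilises microtubules, had 870, 751 and 824 CPM in reduced KSOM, 188 and 202 CPM in depleted KSOM, and 116 and 56.7 CPM in E4.5. Glipr1, a secreted-protein family member, had 136, 167 and 177 CPM in reduced KSOM, 197 and 228 CPM in depleted KSOM, and 16.5 and 17.9 CPM in E4.5 (log2 3.22 ± 0.32, edgeR adjusted p = 0.0017). In all of these, reduced KSOM stood above E4.5 without overlap. Efna1, an ephrin ligand, and Car4, a carbonic anhydrase, also rose, by log2 4.51 and 4.53. Without either E4.5 library, Gchfr alone of the 9 genes just named stayed called, and the others had adjusted p up to 0.22.

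Ferritin light chain and a fatty acid carrier rose from an already high level. Ftl1, the light chain of the iron store ferritin, named after its values were seen, had 26940, 25220 and 18700 CPM in reduced KSOM, 15160 and 13040 CPM in depleted KSOM, and 3845 and 2075 CPM in E4.5 (log2 3.0 ± 0.45, edgeR adjusted p = 0.014). Its processed copies Ftl2-ps and Ftl1-ps1 were called higher by log2 5.81 and 3.54. Reads can be split between such near-identical copies, and these 3 values are uncertain for that reason. Fabp3, which binds fatty acids in the cytosol, had 47460, 40550 and 37970 CPM in reduced KSOM, 15710 and 16770 CPM in depleted KSOM, and 4531 and 5205 CPM in E4.5 (log2 3.11 ± 0.48, edgeR adjusted p = 0.015), and its copy Fabp3-ps1 rose by log2 3.06. Of the 3 groups, reduced KSOM was highest and E4.5 lowest for Ftl1 and Fabp3. Without E4.5 replicate 1 or 2 none of the 5 stayed called (adjusted p 0.11 to 0.24).

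**Figure D2:**
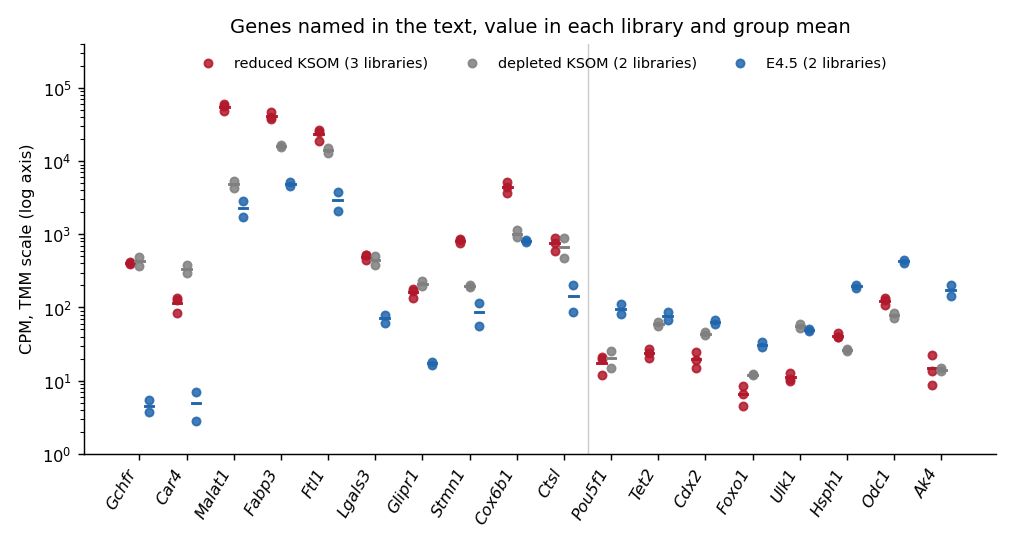
CPM on the TMM scale (log axis) in each library, with the group mean as a bar, for 18 called genes in reduced KSOM, depleted KSOM and E4.5. The 10 genes left of the grey line, such as Gchfr and Fabp3, were higher in reduced KSOM than in E4.5. The 8 right of it, such as Pou5f1 and Ak4, were lower. As in every called gene, the 3 reduced KSOM points are clear of the 2 E4.5 points.

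The largest falls at a mean log2 CPM of 4 or more were those of Ak4 and Raly, and some scarcer genes fell further. Ak4, a mitochondrial adenylate kinase that is also induced by hypoxia, had 13.6, 8.76 and 22.4 CPM in reduced KSOM, 13.4 and 14.7 CPM in depleted KSOM, and 202 and 142 CPM in E4.5 (log2 -3.53 ± 0.60, edgeR adjusted p = 0.019). Both KSOM groups were low and alike in range, and E4.5 was high. Raly, an RNA-binding protein of the heterogeneous ribonucleoprotein family, had 8.89, 8.83 and 5.58 CPM in reduced KSOM, 59.4 and 35.6 CPM in depleted KSOM, and 52.8 and 64 CPM in E4.5. Reduced KSOM was low beside depleted KSOM and E4.5, and Raly was also at 7.84 and 13 CPM in OVX and 6.04 and 8.63 CPM in OVX with sgNprl2 and sgTsc2.

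Further falls at that level had smaller folds, and Pou5f1, Eif4h, Pgd, Hsph1 and Ulk1 among them are described with their pathways. Itga6, the laminin-binding integrin alpha 6 subunit, had 8.76, 15.6 and 15.9 CPM in reduced KSOM, 12.5 and 15.6 CPM in depleted KSOM, and 57.7 and 60.6 CPM in E4.5. Tes, a focal adhesion protein, had 39.7, 45.4 and 41.1 CPM in reduced KSOM, 79.6 and 79.6 CPM in depleted KSOM, and 179 and 182 CPM in E4.5. Cdk16, a cyclin-dependent kinase, and Tmem231, a protein of the ciliary transition zone, fell by log2 2.12 and 2.27. CT010467.1, a gene on chromosome 17 known here only by its clone name, also fell, by log2 2.28. Itga6 and Tes did not overlap between reduced KSOM and E4.5. Without either E4.5 library, none of Ak4, Raly, Itga6, Tes, Cdk16, Tmem231 and CT010467.1 was called (adjusted p 0.079 to 0.30).

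For the lowered amino acids, calls in their own pathways are given beside the 1.13% of all tested genes that were called. Among 25 genes of leucine and isoleucine breakdown, 3 rose and 1 fell. The list was chosen with earlier results of these data known, so its share of calls has no test. Their median log2 fold change was 0.78, or 0.10 on library totals, where that of all tested genes was -0.50. Hsd17b10, which acts in isoleucine breakdown, had 142, 137 and 151 CPM in reduced KSOM, 153 and 172 CPM in depleted KSOM, and 54.2 and 59.1 CPM in E4.5. Auh, the methylglutaconyl-CoA hydratase of leucine breakdown, had 66.1, 82.7 and 72 CPM in reduced KSOM, 98.8 and 108 CPM in depleted KSOM, and 29.9 and 22.4 CPM in E4.5. Ivd, which oxidises isovaleryl-CoA from leucine, had 22.0, 26.1 and 17.9 CPM in reduced KSOM and 4.21 and 5.72 CPM in E4.5. These 3 enzymes of later breakdown steps were higher in every reduced KSOM library than in either E4.5 library.

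Bcat1, the cytosolic transaminase that starts leucine and isoleucine breakdown, went the other way, with 32.4, 18.6 and 31.2 CPM in reduced KSOM, 53.3 and 19.1 CPM in depleted KSOM, and 113 and 114 CPM in E4.5 (log2 -2.05 ± 0.41, edgeR adjusted p = 0.036). Of 24 arginine and polyamine genes, 1 fell: Odc1, the first enzyme of polyamine synthesis from ornithine, had 109, 127 and 133 CPM in reduced KSOM, 84.0 and 72.4 CPM in depleted KSOM, and 447 and 411 CPM in E4.5 (log2 -1.81 ± 0.30, edgeR adjusted p = 0.018). Both genes were low in both KSOM groups. None of 9 lysine breakdown genes passed. On library totals Hsd17b10, Auh and Ivd were not called, and without E4.5 replicate 1 or 2 none of these 5 genes was (adjusted p 0.12 to 0.41).

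The response to a lack of amino acids, driven by the transcription factor Atf4, had no called member among 39 tested genes. Over all tested genes 1.13% were called, a share at which a list of this size can hold none. The median log2 fold change of that list was 0.67, with 31 of 39 members above 0. On library totals it was -0.05, where that of all tested genes was -0.50. Ddit3, a stress-induced transcription factor, had 206, 166 and 225 CPM in reduced KSOM, 105 and 188 CPM in depleted KSOM, and 59.9 and 52.4 CPM in E4.5 (edgeR adjusted p = 0.060). Asns, the asparagine synthetase that Atf4 induces, had 248, 117 and 170 CPM in reduced KSOM, 473 and 300 CPM in depleted KSOM, and 132 and 87.9 CPM in E4.5 (edgeR adjusted p = 0.42). Atf4 itself had 70.9, 69.6 and 93.9 CPM in reduced KSOM and 150 and 218 CPM in E4.5 (edgeR adjusted p = 0.24). Ddit3 did not overlap E4.5 and Asns did, and Atf4 lay below E4.5 in all 3 libraries.

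Nutrient sensing and uptake genes likewise gave no call, where 1.13% of all tested genes were called. None of 49 mTORC1 and nutrient sensor genes passed, with a median log2 fold change of 0.08 (-0.61 on library totals), and none of 36 amino acid transporters, with a median of 0.18 (-0.51 on library totals). Sesn2, a leucine sensor that Atf4 also induces, had 8.60, 6.09 and 3.15 CPM in reduced KSOM and 21.8 and 26.7 CPM in E4.5 (edgeR adjusted p = 0.18). Nprl2, which restrains mTORC1 when amino acids are short, had 12.7 to 25.9 CPM in reduced KSOM and 11.9 to 18.5 CPM in E4.5, and Tsc2, which restrains it when growth signals are, had 15.7 to 22.2 CPM in reduced KSOM and 14.4 to 17.0 CPM in E4.5. Both overlap E4.5. Slc7a1, the main carrier of arginine and lysine, had 12.8 to 27.4 CPM in reduced KSOM and 20.1 to 25.5 CPM in E4.5. The fold change of Nprl2 and that of Tsc2 turned negative on library totals, at -0.44 and -0.46.

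Carbohydrate genes gave single calls. None of 28 glucose transport and glycolysis genes passed. Their median log2 fold change was 0.49, or -0.20 on library totals, where that of all tested genes was -0.50. Hk2, a hexokinase, had 1478, 1002 and 1356 CPM in reduced KSOM, 662 and 778 CPM in depleted KSOM, and 350 and 510 CPM in E4.5 (edgeR adjusted p = 0.12). All 3 reduced KSOM libraries lay above both other groups. Slc2a1, a glucose carrier, had 15.7 to 21.8 CPM in reduced KSOM and 16.1 to 26.3 CPM in E4.5, and these ranges overlap.

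Among 23 lactate and pyruvate genes Ldhb was called. Ldhb, the lactate dehydrogenase subunit that favours use of lactate, had 7.65, 6.07 and 6.20 CPM in reduced KSOM, 15 and 14.4 CPM in depleted KSOM, and 0.532 and 0.101 CPM in E4.5 (log2 4.39 ± 0.87, edgeR adjusted p = 0.034). Ldha, the other main subunit, had 59.9, 63.6 and 57.0 CPM in reduced KSOM, 12 and 14.2 CPM in depleted KSOM, and 52.3 and 25.2 CPM in E4.5 and was not called against E4.5 (adjusted p = 0.45). The monocarboxylate carrier Slc16a1 had 14.4 to 19.7 CPM in reduced KSOM and 16.7 to 19.7 CPM in E4.5.

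Pgd, of the oxidative pentose phosphate pathway, had 18.0, 36.3 and 28.7 CPM in reduced KSOM, 24.6 and 32.6 CPM in depleted KSOM, and 159 and 109 CPM in E4.5 (log2 -2.27 ± 0.39, edgeR adjusted p = 0.020). Cs, the citrate synthase at the entry of the TCA cycle, had 57.2, 73.1 and 63.1 CPM in reduced KSOM and 162 and 171 CPM in E4.5. Pgd was the 1 call of 21 pentose phosphate and glycogen genes and Cs the 1 of 26 TCA genes. Without E4.5 replicate 1 or 2, Ldhb, Pgd and Cs were not called (adjusted p 0.11 to 0.27), and Ldhb was not called on library totals.

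Genes of the mitochondrial respiratory chain, which carries electrons from NADH to oxygen and drives ATP synthesis, lay above E4.5 as a group with few calls. Of 36 nuclear genes of complex I, 32 did not overlap between reduced KSOM and E4.5 on the higher side, where 24% of all tested genes did so, and 1 was called. Their median log2 fold change was 1.24, or 0.55 on library totals. Of 36 nuclear genes of complexes III to V, 28 were higher without overlap and 1 was called, with a median of 1.41, or 0.71 on library totals. Ndufb9, a complex I subunit, had 2320, 1748 and 2385 CPM in reduced KSOM, 633 and 620 CPM in depleted KSOM, and 534 and 460 CPM in E4.5. Cox6b1, a subunit of cytochrome c oxidase, had 4403, 3647 and 5178 CPM in reduced KSOM, 911 and 1131 CPM in depleted KSOM, and 827 and 785 CPM in E4.5 (log2 2.45 ± 0.47, edgeR adjusted p = 0.030). Reduced KSOM was high and the other 2 groups were close to each other for both genes.

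The mitochondrially encoded genes had another order. Of 13 such mRNAs, 2 were called higher, and the list median was 0.66, or -0.02 on library totals. Mt-Atp6, an ATP synthase subunit, had 8343, 12350 and 13450 CPM in reduced KSOM, 13070 and 14370 CPM in depleted KSOM, and 1048 and 2999 CPM in E4.5. The other call, mt-Atp8, overlaps mt-Atp6 on the mitochondrial genome, so reads of the 2 cannot be fully told apart. Both KSOM groups were above E4.5 and overlapped for mt-Atp6.

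The nuclear respiratory chain genes are short, with median transcript lengths of 1025.5 and 1065 nt, and the tested genes of about 820 and 1308.5 nt had medians of 0.42. With a length offset the medians of complex I and of complexes III to V were 0.92 and 1.03. A fit that gave the 4 libraries with muscle RNA a term of their own put them at -0.17 and -0.23, and the part of muscle RNA in their level was not tested. Without either E4.5 library, Ndufb9, Cox6b1, mt-Atp6 and mt-Atp8 were not called (adjusted p 0.12 to 0.40).

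Lysosomal genes were shifted upward, with 4 members higher and 1 lower of 49 tested. The list median was 0.87, or 0.18 on library totals, and 33 members were higher without overlap (24% of all tested genes). Ctsl, the lysosomal protease cathepsin L, had 761, 595 and 903 CPM in reduced KSOM, 883 and 475 CPM in depleted KSOM, and 203 and 85.6 CPM in E4.5 (log2 2.39 ± 0.43, edgeR adjusted p = 0.024). Fuca1, the lysosomal fucosidase, had 339, 373 and 242 CPM in reduced KSOM, 396 and 348 CPM in depleted KSOM, and 93.0 and 52.4 CPM in E4.5. Both were higher than E4.5 in every reduced KSOM library, and the protease Tpp1 rose as well, by log2 2.18.

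Psap, the precursor of the saposins that aid breakdown of sphingolipids, fell, with 222, 256 and 293 CPM in reduced KSOM, 840 and 681 CPM in depleted KSOM, and 611 and 941 CPM in E4.5 (log2 -1.59 ± 0.29, edgeR adjusted p = 0.024). Against depleted KSOM the lysosomal list ran lower, with no member higher and 12 lower and a median of -0.73, where all genes tested had a median of 0.29. On library totals Fuca1 and Psap alone of Ctsl, Fuca1, Tpp1 and Psap stayed called against E4.5, and without E4.5 replicate 1 or 2 none did (adjusted p 0.11 to 0.29).

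Many lysosomal genes carry the E-box CACGTG, bound by TFEB and its relatives, near their start. In a window of 280 bases, from 250 before to 30 after the RefSeq start (GRCm38.p6), CACGTG stood in 14 of 38 lysosomal genes with a window (36.8%) and in 1398 of 13340 tested genes (10.5%). It stood in 20 of 121 called higher genes (16.5%) and in 8 of 56 called lower genes (14.3%). The motif is its own reverse complement, so 1 search covers both strands. The window of Ctsl, chr13:64370491-64370770 on the minus strand, is shown because Ctsl had the largest fold among the called lysosomal genes, and its capitals mark the motif, which starts 236 bases before the start of the gene. The windows of Fuca1 and Tpp1 and both windows of Psap hold no CACGTG.
Ctsl: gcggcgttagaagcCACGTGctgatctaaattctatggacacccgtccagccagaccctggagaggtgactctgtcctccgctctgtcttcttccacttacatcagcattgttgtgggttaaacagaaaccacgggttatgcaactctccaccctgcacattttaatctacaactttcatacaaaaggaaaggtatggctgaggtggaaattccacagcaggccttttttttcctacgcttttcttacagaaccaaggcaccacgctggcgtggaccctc
A match is a description of the letters and not a measured binding site.

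Autophagy genes moved in both directions, 1 higher and 2 lower of 40. Ulk1, the kinase that starts autophagy and that mTORC1 inhibits, had 9.92, 10.5 and 12.7 CPM in reduced KSOM, 59.0 and 51.6 CPM in depleted KSOM, and 50.3 and 47.6 CPM in E4.5 (log2 -2.15 ± 0.32, edgeR adjusted p = 0.014). Reduced KSOM was low beside depleted KSOM and E4.5, and Ulk1 was also at 20.6 and 23.4 CPM in OVX and 13.2 and 12.5 CPM in OVX with sgNprl2 and sgTsc2. Atg13, its partner in the initiating complex, had 24.4, 31.6 and 28.6 CPM in reduced KSOM, 70.1 and 55.0 CPM in depleted KSOM, and 66.4 and 87.5 CPM in E4.5. Optn, a receptor that links cargo to the autophagosome, had 60.4, 59.2 and 53.4 CPM in reduced KSOM, 100.1 and 72.5 CPM in depleted KSOM, and 15 and 21.4 CPM in E4.5. Ulk1 and Atg13 were low and the cargo receptor high relative to E4.5. Optn was not called on library totals, and none of the 3 was without E4.5 replicate 1 or 2 (adjusted p 0.11 to 0.31).

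Heat shock genes, which encode chaperones and their helpers, lay lower. Of 26 tested, 2 fell and none rose, and 12 were lower without overlap, where 20.4% of all tested genes were. The list median was -0.42. Hsph1, a nucleotide exchange factor of the HSP70 chaperones, had 39.2, 44.8 and 39.2 CPM in reduced KSOM, 27.1 and 25.5 CPM in depleted KSOM, and 203 and 184 CPM in E4.5 (log2 -2.24 ± 0.29, edgeR adjusted p = 0.0098). Stip1, which joins HSP70 to HSP90, had 89.4, 77.4 and 91.0 CPM in reduced KSOM, 91.8 and 92.8 CPM in depleted KSOM, and 297 and 279 CPM in E4.5 (log2 -1.74 ± 0.29, edgeR adjusted p = 0.018). Both KSOM groups were low for both genes.

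The heat shock element, bound by HSF1, has at its core GAANNTTC, which is its own reverse complement in form. The core stood in 9 of 20 heat shock genes with a window (45%) and in 907 of 13340 tested genes (6.8%). It stood in 5 of 56 called lower genes (8.9%) and 9 of 121 called higher genes (7.4%). The windows of the 2 called genes are shown because 1 holds GAANNTTC and the other does not. That of Hsph1 lies at chr5:149636286-149636565 on the minus strand, at the more downstream of its RefSeq starts. GAANNTTC stands in capitals 20 bases after the start, and the window of its other start holds no GAANNTTC. Both Hsph1 windows hold the other order, as ttctcgaa before the start, which is not marked. That of Stip1 lies at chr19:7039997-7040276 on the minus strand and has no match, so it has no capitals.
Hsph1: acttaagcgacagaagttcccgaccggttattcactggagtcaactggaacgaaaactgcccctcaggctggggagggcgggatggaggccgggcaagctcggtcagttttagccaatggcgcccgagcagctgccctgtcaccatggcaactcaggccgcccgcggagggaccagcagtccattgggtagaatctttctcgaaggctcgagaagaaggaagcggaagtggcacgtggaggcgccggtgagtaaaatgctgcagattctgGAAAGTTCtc
Stip1: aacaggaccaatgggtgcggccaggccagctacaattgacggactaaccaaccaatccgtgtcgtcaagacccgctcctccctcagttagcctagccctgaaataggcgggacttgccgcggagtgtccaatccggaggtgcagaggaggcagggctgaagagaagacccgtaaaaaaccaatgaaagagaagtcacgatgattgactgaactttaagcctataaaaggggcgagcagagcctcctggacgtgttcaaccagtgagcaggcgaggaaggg
No match says only that these letters are not in this window.

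Genes against oxidative stress and of glutathione gave 2 rises among 42 and a median of 0.73, or 0.04 on library totals. Gstk1, a mitochondrial and peroxisomal glutathione transferase, had 113, 113 and 93.1 CPM in reduced KSOM, 49.9 and 49.6 CPM in depleted KSOM, and 21.4 and 17.8 CPM in E4.5 (log2 2.44 ± 0.30, edgeR adjusted p = 0.0095). Gstm2, a cytosolic glutathione transferase, had 121, 105 and 122 CPM in reduced KSOM, 64.7 and 127 CPM in depleted KSOM, and 23.4 and 37.2 CPM in E4.5. Selenos, which acts in the removal of misfolded proteins from the endoplasmic reticulum, was the 1 call of 28 genes of that stress response, with 230, 250 and 301 CPM in reduced KSOM and 107 and 63.7 CPM in E4.5. All 3 were higher than E4.5 without overlap.

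Among 39 p53 target and apoptosis genes, Hrk, a BH3-only activator of apoptosis, was called at a low level. It had 2.08, 1.31 and 4.83 CPM in reduced KSOM, 3.82 and 0.661 CPM in depleted KSOM, and no count in E4.5, at least 65.7-fold higher against the floor of 3 counts per library. Cdkn1a, the p53 target p21, had 82.6, 122 and 84.2 CPM in reduced KSOM and 107 and 36.4 CPM in E4.5, which overlap. On library totals Selenos and Gstm2 were not called. Without E4.5 replicate 1 or 2 none of Hsph1, Stip1, Gstk1, Gstm2, Selenos and Hrk was called (adjusted p 0.074 to 0.38).

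Genes of protein synthesis and turnover had scattered falls. Of 41 translation factors 3 fell, of 80 cytosolic ribosomal proteins 1, of 40 ribosome biogenesis genes 1, and of 35 proteasome genes 1, with no rise in these lists. Eif4h, which aids the helicase that unwinds mRNA for scanning, had 40.5, 35.2 and 48.4 CPM in reduced KSOM, 109 and 90.5 CPM in depleted KSOM, and 224 and 200.2 CPM in E4.5 (log2 -2.36 ± 0.33, edgeR adjusted p = 0.011). Gspt1, a translation termination factor, and Eif2s3x, an initiation factor subunit, fell by log2 1.59 and 1.48. Rps12, a protein of the small ribosomal subunit, had 56.8, 79.2 and 49.0 CPM in reduced KSOM, 34.0 and 75.9 CPM in depleted KSOM, and 186 and 293 CPM in E4.5. Fbl, the methyltransferase that modifies ribosomal RNA, had 50.2, 47.5 and 43.1 CPM in reduced KSOM, 23.6 and 27.7 CPM in depleted KSOM, and 141 and 123 CPM in E4.5. Each was low in reduced KSOM without overlap with E4.5, and Psmd3 of the proteasome lid fell by log2 1.97.

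The ribosomal protein list as a whole had a median of 0.23, or -0.46 on library totals. Against depleted KSOM, 35 of the 80 were higher and none lower, with a median of 1.41, beside 2.99% higher, 2.8% lower and a median of 0.29 over all genes tested. These genes are short, with a median transcript length of 1054 nt. Tested genes of about 820 and 1308.5 nt had medians of 1.13 and 0.54 against depleted KSOM, and the part of length in the ribosomal median was not tested. Without E4.5 replicate 1 or 2, Eif4h, Gspt1, Eif2s3x, Rps12, Fbl and Psmd3 were not called (adjusted p 0.074 to 0.37).

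Cell division genes gave few calls against E4.5. None of 52 mitosis genes passed, with a median of -0.44 and 29 lower without overlap (20.4% of all tested genes), and 1 of 53 DNA replication genes rose, with a median of -0.39. That 1 was Rpa3, the small subunit of the protein that coats single-stranded DNA, with 83.9, 104 and 124 CPM in reduced KSOM, 45.1 and 53.3 CPM in depleted KSOM, and 40.4 and 31.4 CPM in E4.5. Mki67, a marker of cycling cells, had 51.3, 47.5 and 78.0 CPM in reduced KSOM, 18.7 and 8.78 CPM in depleted KSOM, and 80.3 and 89.2 CPM in E4.5 (edgeR adjusted p = 0.76). The 3 reduced KSOM libraries lay below both E4.5 libraries by less than the fitted spread.

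Foxo1, a transcription factor that insulin signalling keeps out of the nucleus and that was counted among 27 cell cycle brakes, fell. It had 4.51, 8.36 and 6.59 CPM in reduced KSOM, 11.9 and 12.2 CPM in depleted KSOM, and 33.6 and 28.7 CPM in E4.5 (log2 -2.26 ± 0.41, edgeR adjusted p = 0.025). Myc and Mycn, drivers of growth, had 8.49 to 14.4 and 9.05 to 15.3 CPM in reduced KSOM and 11.3 to 17.9 and 14.3 to 14.7 CPM in E4.5. Both ranges overlap. Foxo1 and Rpa3 lost their calls without E4.5 replicate 1 or 2 (adjusted p 0.15 to 0.40), and Rpa3 on library totals.

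Pluripotency genes fell more often than they rose, 5 against 1 of 36 tested, with a list median of -0.91 and 21 members lower without overlap (20.4% of all tested genes). On library totals the list median was -1.59, where that of all tested genes was -0.50. With the term for the 4 libraries with muscle RNA it was -0.096, where that of all tested genes was 0.29, and none of the 6 calls stayed. Pou5f1 (ENSMUSG00000024406, chromosome 17), which encodes the pluripotency factor OCT4, had 19.9, 20.9 and 11.9 CPM in reduced KSOM, 25.6 and 14.6 CPM in depleted KSOM, and 111 and 82.5 CPM in E4.5 (log2 -2.46 ± 0.36, edgeR adjusted p = 0.014). Both KSOM groups were low and overlapped. Dppa2, a regulator of early embryonic genes, had 60.6, 58.8 and 62.9 CPM in reduced KSOM, 17.0 and 23.2 CPM in depleted KSOM, and 198 and 165 CPM in E4.5. Klf5 and Tfcp2l1, factors of the naive state, fell by log2 1.23 and 1.14. Dppa5a, an RNA-binding marker of pluripotent cells, was the exception, with 17270, 13900 and 16580 CPM in reduced KSOM, 6141 and 7035 CPM in depleted KSOM, and 4301 and 3367 CPM in E4.5 (log2 2.05 ± 0.45, edgeR adjusted p = 0.049).

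The other 2 core factors were not called. Nanog had 14.1, 11.8 and 10.5 CPM in reduced KSOM, 23.2 and 31.5 CPM in depleted KSOM, and 44.4 and 37.9 CPM in E4.5 (edgeR adjusted p = 0.29). Sox2 had 5.51, 8.07 and 4.80 CPM in reduced KSOM and 9.43 and 8.87 CPM in E4.5 (edgeR adjusted p = 0.62). Both lay below E4.5 in all 3 libraries. Leaving out E4.5 replicate 1 or 2 ended the calls of Pou5f1, Dppa2, Tet2, Klf5, Tfcp2l1 and Dppa5a (adjusted p 0.081 to 0.39).

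**Figure D3:**
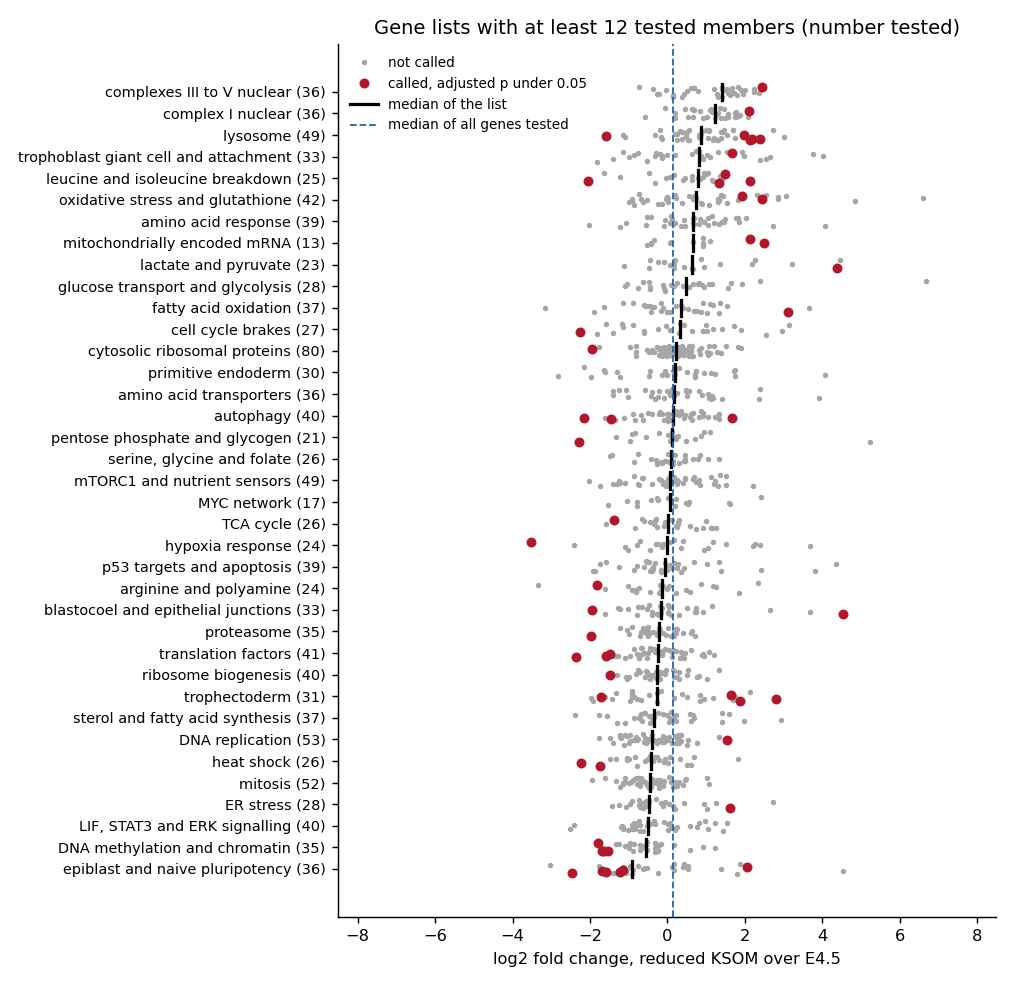
Log2 fold change of reduced KSOM over E4.5 of each member with a fitted value, for pathway lists with at least 12 tested members, with called members in red, the list median as a black bar and the median of all genes (0.15) as a dashed line. Complexes III to V and complex I of the respiratory chain, at 1.41 and 1.24, and the lysosome, at 0.87, have the highest medians. The pluripotency list has the lowest, at -0.91. With a term for the libraries with muscle RNA, these 4 medians were -0.23, -0.17, 0.75 and -0.096, in the order given. In every list most members were not called.

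Of 35 genes of DNA methylation and chromatin, 4 fell and none rose, and 22 were lower without overlap (20.4% of all tested genes), with a median of -0.54. Tet2, which oxidises methylcytosine, had 27.3, 23.9 and 20.2 CPM in reduced KSOM, 56.1 and 64 CPM in depleted KSOM, and 66.6 and 86.7 CPM in E4.5. Dnmt3b, a de novo DNA methyltransferase, had 51.5, 48.8 and 55.0 CPM in reduced KSOM, 27.6 and 40.5 CPM in depleted KSOM, and 189 and 170 CPM in E4.5. Smarca5, a motor of nucleosome remodelling, and Jarid2, a partner of Polycomb repressive complex 2, fell by log2 1.63 and 1.52. Both enzymes of methylcytosine were lower in every reduced KSOM library than in either E4.5 library. The list has a median transcript length of 4430 nt. With a length offset Jarid2 and Dnmt3b were not called, while without E4.5 replicate 1 or 2 none of the 4 was (adjusted p 0.12 to 0.28).

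Trophectoderm genes were called in both directions, 3 higher and 1 lower of 31, with a median of -0.28. Lgals3, a galactoside-binding lectin, had 517, 519 and 446 CPM in reduced KSOM, 378 and 501 CPM in depleted KSOM, and 79.9 and 62.3 CPM in E4.5 (log2 2.80 ± 0.34, edgeR adjusted p = 0.0093). Dppa1 had 2734, 2855 and 4142 CPM in reduced KSOM, 2440 and 2864 CPM in depleted KSOM, and 681 and 1074 CPM in E4.5. Tspan8, a tetraspanin membrane protein, rose by log2 1.64. These 3 were high in both KSOM groups.

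Cdx2, the transcription factor that specifies trophectoderm, fell, with 24.7, 19.2 and 14.8 CPM in reduced KSOM, 42.0 and 45.6 CPM in depleted KSOM, and 59.0 and 68.1 CPM in E4.5 (log2 -1.70 ± 0.36, edgeR adjusted p = 0.044). Gata3, another trophectoderm factor, had 110, 132 and 119 CPM in reduced KSOM, 618 and 484 CPM in depleted KSOM, and 194 and 246 CPM in E4.5 and was not called against E4.5 (adjusted p = 0.21). The keratin Krt18 of the trophectoderm epithelium had 18740, 15520 and 9775 CPM in reduced KSOM and 2681 and 4029 CPM in E4.5 (edgeR adjusted p = 0.057). Krt18 lay higher without overlap but did not pass. On library totals Lgals3 and Cdx2 were called and Dppa1, Tspan8 and Cd9 were not, and without E4.5 replicate 1 or 2 none of the 5 was (adjusted p 0.096 to 0.36).

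Genes of attachment and of the epithelium that holds the blastocyst cavity gave 3 calls. Cd9, a tetraspanin of cell adhesion and fusion, was the 1 call of 33 giant cell and attachment genes, with 1619, 1517 and 2199 CPM in reduced KSOM, 1706 and 1721 CPM in depleted KSOM, and 538 and 582 CPM in E4.5. Car4, the carbonic anhydrase of the cell surface, had 134, 85.2 and 126 CPM in reduced KSOM, 380 and 292 CPM in depleted KSOM, and 7.08 and 2.83 CPM in E4.5. Gja1, the gap junction protein connexin 43, fell, with 32.1, 29.4 and 37.7 CPM in reduced KSOM, 26.3 and 16.3 CPM in depleted KSOM, and 144 and 112 CPM in E4.5. Car4 and Cd9 were high and Gja1 low in both KSOM groups relative to E4.5. Without E4.5 replicate 1 or 2, Car4 and Gja1 were not called (adjusted p 0.11 to 0.21).

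Primitive endoderm genes gave 1 call among 30. Ttr, a thyroid hormone carrier also made in liver, had 7.38, 0.814 and 7.11 CPM in reduced KSOM and no count in E4.5, with replicates 1 and 3 high as for the liver markers above, and the part of liver RNA was not tested. Gata6, a factor that specifies primitive endoderm, had 21.3, 50.1 and 43.2 CPM in reduced KSOM, 37.2 and 48.7 CPM in depleted KSOM, and 131 and 107 CPM in E4.5 (edgeR adjusted p = 0.061). Sox17 had 2.07 to 6.93 CPM in reduced KSOM and 4.01 to 6.11 CPM in E4.5, which overlap. Of 40 genes of LIF, STAT3 and ERK signalling, which diapause embryos and stem cells use, none passed against E4.5. Lifr, the LIF receptor, had 6.73, 9.82 and 12.9 CPM in reduced KSOM and 3.97 and 2.83 CPM in E4.5 (edgeR adjusted p = 0.29).

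Reduced KSOM differed from depleted KSOM, a cultured group of the same embryonic day, in 1263 genes (5.79%). Of these, 652 (2.99%) were higher and 611 (2.8%) lower in reduced KSOM. This comparison shares the reduced KSOM libraries with that against E4.5. Higher calls were 51.6% with TMM scaling and 38.8% on library totals. The muscle and neutrophil sums given above also separate these groups, and 615 (2.87%) were higher when set-apart genes were left out.

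Lipid carriers and a gluconeogenic enzyme were among the largest rises over depleted KSOM. Apoc2, a cofactor of lipoprotein lipase, had 123, 49.4 and 207 CPM in reduced KSOM, 3.18 and 2.47 CPM in depleted KSOM, and 24.3 and 18.0 CPM in E4.5 (log2 5.49 over depleted KSOM, edgeR adjusted p = 0.019). Apoc1, its neighbour in the apolipoprotein cluster, had 1635, 1396 and 2043 CPM in reduced KSOM, 90.4 and 147 CPM in depleted KSOM, and 305 and 239 CPM in E4.5. Fbp2, a fructose bisphosphatase that is also abundant in muscle, had 187, 213 and 211 CPM in reduced KSOM, 5.65 and 14.2 CPM in depleted KSOM, and 566 and 540 CPM in E4.5. Of the 3 groups, depleted KSOM was the lowest for these genes, and E4.5 the highest for Fbp2. Fxyd4, a regulator of the sodium pump, rose over depleted KSOM by log2 3.89 and Sycn by 4.64.

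The largest falls relative to depleted KSOM were in genes that depleted KSOM held high. Eif2ak3, the PERK kinase of the endoplasmic reticulum stress response, had 23.0, 16.7 and 18.7 CPM in reduced KSOM, 292 and 240 CPM in depleted KSOM, and 3.52 and 7.36 CPM in E4.5 (log2 -3.77 over depleted KSOM, edgeR adjusted p = 0.0072). Btg1, an antiproliferative gene, had 48.6, 56.9 and 73.3 CPM in reduced KSOM, 1014 and 706 CPM in depleted KSOM, and 15.6 and 20.5 CPM in E4.5. Pan3, of a complex that shortens poly(A) tails, had 8.47, 10.1 and 10.8 CPM in reduced KSOM, 152 and 204 CPM in depleted KSOM, and 19.1 and 16.8 CPM in E4.5. Reduced KSOM lay between the other groups for Eif2ak3 and Btg1 and below both for Pan3.

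Of the carbon genes, Ldha was higher than in depleted KSOM by log2 2.20 (edgeR adjusted p = 0.016) and the carrier Slc16a1 lower by 1.63 (log2 -1.63, edgeR adjusted p = 0.041). Complex I had 9 members higher and 1 lower of 36 than depleted KSOM, with a median of 1.33. Complexes III to V had 11 higher of 36, with a median of 1.59. DNA replication had 9 higher and 1 lower of 53, with a median of 0.92, and mitosis 3 higher of 52, with a median of 1.17. Over all genes tested, 2.99% were higher and 2.8% lower, with a median of 0.29. The respiratory genes are short, and tested genes of about 820 and 1308.5 nt had medians of 1.13 and 0.54 against depleted KSOM. The part of length was not tested. Leaving out depleted KSOM replicate 1 or 2 kept 44 or 77 of the 1263 calls between these groups, leaving out a reduced KSOM replicate kept 141 to 213, and the fit with a muscle term left 0.

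Fold change varied with transcript length. In 10 groups of tested genes ordered by length, the median log2 fold change of reduced KSOM over E4.5 was 0.03 for genes of about 411 nt, 0.42 at 820 nt, 0.42 at 1308.5 nt, 0.17 at 2839 nt and -0.01 at 7491.5 nt. Genes called higher had a median length of 1490.5 nt and genes called lower 3352 nt, beside 2566.5 nt over all tested genes. Within libraries, the log2 CPM of each gene was set against its mean over the other 12 libraries, and the rank correlation of that difference with length across genes, a description in which genes are not independent, was -0.208, -0.0869 and -0.166 in reduced KSOM, 0.258 and 0.174 in depleted KSOM, and 0.00949 and 0.165 in E4.5. An offset for length gave 261 calls in place of 247, of which 194 were shared, and the part of RNA quality in these values was not tested.

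**Figure D4:**
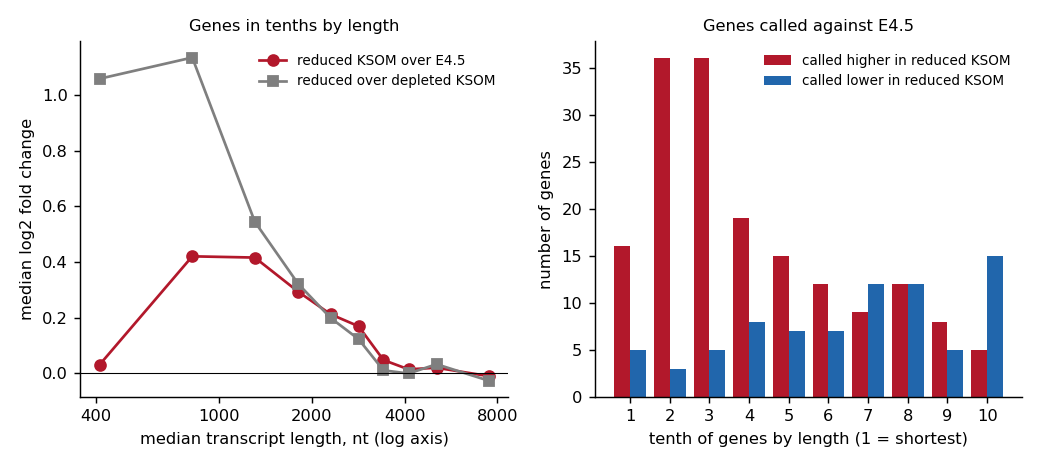
Left, the median log2 fold change of reduced KSOM over E4.5 and over depleted KSOM in 10 groups of genes ordered by transcript length, against the median length of each group in nucleotides (log axis); right, the number of genes called higher and lower against E4.5 in each group. The calls that are higher peak at 36 in each of the groups at 820 and 1308.5 nt, and the group of the longest genes has 5 higher and 15 lower calls.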

How the data were processed

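RNA of whole blastocysts was amplified with the SMART-Seq v4 kit, per the labels' protocols. The deposited table holds estimated counts per gene on GRCm38, all whole numbers, and FPKM values made by the authors, in the same columns of libraries. The submitters' processing notes name cutadapt 1.9, HISAT2 2.0.4 and StringTie 1.3.4d, and the annotation and the counting tool are not given in the sources used here.

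Counts of all 13 libraries in 6 groups were fitted together with edgeR 4.0.16 in R 4.3.3 (filterByExpr, TMM scaling, quasi-likelihood tests, 7 residual degrees of freedom), with Benjamini-Hochberg adjustment over 21808 genes and a threshold of 0.05. Gene values are CPM on the TMM scale unless library totals are named, and SE is the log2 fold change divided by the root of the F statistic. A gene with no count in a group has a bound from a floor of 3 counts per library, also in list medians.

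The members, the 38 pathway lists and the tissue lists were chosen with earlier results of these data known, so lists have counts and medians and no test. The rule for naming genes took up to 12 in each direction with the largest called folds at a mean log2 CPM of at least 4. These had to show no overlap between the groups, not be set apart and not have a predicted-gene name. The rule also took up to 3 called members of each list, a panel of 30 genes, the most abundant set-apart genes, and the largest folds against depleted KSOM. Ftl1, Fabp3-ps1, Krt18, Scgb1a1, Ctsl, Ivd, Tpp1, Klf5, Tfcp2l1, Dppa5a, Dnmt3b, Tspan8, Ltf, Lcn2, Gngt2 and Gm47299 fall outside that rule and were named after their values were seen. No pair of replicates agreed within sampling noise. Promoter windows are RefSeq sequences of GRCm38.p6, matched by symbol for 13340 of 21785 tested symbols. The test was tried on simulated counts. Figures were drawn with matplotlib 3.10.9 in Python 3.11.15. Alternatives were other scalings, DESeq2 1.42.0, limma 3.58.1 on log2(FPKM + 1), other filters, a replicate block, left-out libraries, counts divided by 4, an offset for transcript length, removal of set-apart genes and a term for libraries with muscle RNA.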

Additional observations from a re-analysis of the deposited data

How the results depend on the processing

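Against E4.5, reduced KSOM had 247 calls, 168 higher and 79 lower. Library totals gave 545 (82 higher, 463 lower), DESeq2 1753 (1185, 568), limma on log2 FPKM 2248 (451, 1797), no filter on low counts 1226 (825, 401), a mean of at least 5 CPM 499 (304, 195), a fit of the 2 groups alone 2386 (1291, 1095), and a term for libraries with muscle RNA 2 (2, 0). Counts divided by 4 gave 132 lower calls. Leaving out 1 library gave 2 to 557 calls, 1 to 394 higher and 1 to 163 lower, the highest values being those without OVX replicate 1, an omission chosen after seeing the data. Median-of-ratios scaling (235 calls), the length offset (261) and removal of set-apart genes (249) stayed within 1.5 times. Of called genes, 54.1% were higher in the fit of the 2 groups alone and 79.7% with the replicate block.

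Against depleted KSOM, the 1263 calls (652 higher, 611 lower) became 3561 (2379, 1182) with DESeq2, where 66.8% were higher, 1994 with limma (1031 lower), 2652 (1587, 1065) with no filter, 4157 (2189, 1968) in a fit of the 2 groups alone, 831 with the length offset (387 lower) and 0 (0, 0) with the muscle term. Leaving out 1 library gave 55 to 1743 calls, 20 to 976 higher and 35 to 767 lower.

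The replicate numbers are not stated to pair libraries, and same-numbered libraries deviated with a correlation of 0.106 against E4.5 and -0.0544 against depleted KSOM over the 2 shared numbers. With the replicate block there were 59 calls against E4.5 (47 higher, 12 lower) and 479 against depleted KSOM (271, 208), and Sox17 turned to log2 0.1836.

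Of the named genes called against E4.5, Ngp alone changed direction, with the muscle term (adjusted p = 0.8601). Genes not called that changed direction were these. On library totals, Tsc2 was at log2 -0.4634, Nprl2 -0.4416, Ddit4 -0.03086, Cdkn1a -0.2296 and Ldha -0.03369. In limma, Tsc2 was at -0.2886, Nprl2 -0.3816, Cdkn1a -0.06124 and Asns -0.0001358. Sox17 was at 0.007552 in DESeq2 and 0.007434 with median-of-ratios scaling. With the length offset, Sox17 was at 0.08484, Slc2a1 0.005174, Slc16a1 0.09011 and Slc7a1 0.1208. With 1 library left out, Nprl2 ranged from -0.09003 to 0.5288, Sox17 from -0.361 to 0.3617, Cdkn1a from -0.2344 to 1.403, Slc2a1 from -0.4145 to 0.2128, Slc7a1 from -0.2924 to 0.1845 and Slc16a1 from -0.1942 to 0.03433. With the muscle term, Hk2 was at -0.0834, Tsc2 -0.5206, Nanog 0.1962, Ddit4 -2.95, Myc 2.991, Sox17 4.48, Slc2a1 1.603, Sesn2 0.07358, Slc16a1 1.103, Mycn 1.764, Slc7a5 0.5253, Mylpf -1.283, Ckm -2.371, Fcer1g -1.635 and C1qb -3.813, and Myh4 (adjusted p = 1), Retnlg (0.8557), Tyrobp (0.6698), Wfdc17 (0.6871) and Clec4f (1) also turned.

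The rule that set genes apart gave 373 tested genes at 5%, 523 at 10% and 273 at 2%. Mean muscle marker sums in reduced KSOM were 1839 CPM over the full list and 924.2 CPM over markers near absent in E4.5, fewer genes by construction. The cause of the other changes was not tested. With 3 and 2 libraries the smallest 2-sided exact p for a single value is 0.2, so only the fit across genes gives calls.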
